A study of Drosophila melanogaster with 9 samples.

Results

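The Bithorax complex of Drosophila melanogaster is the stretch of chromosome arm 3R that holds the homeotic genes Ubx (FBgn0003944, chr3R:16656623-16734426), abd-A (FBgn0000014, chr3R:16807214-16830049) and Abd-B (FBgn0000015, chr3R:16927212-16972236), all on the minus strand of dm6. Every peak with its summit between the 3′ end of Ubx and the 5′ end of Abd-B, an interval of 316 kb, was taken from 4 deposited ChIP-seq peak lists, which gave 48 peaks of 29281. The lists come from whole embryos of 2 transgenic lines, immunoprecipitated with antibodies to FLAG or to CP190, with 2 replicates for each antibody and line. One line expressed Pita wt fused with 3×FLAG, and the other expressed the same fusion of Pita ΔCP1+2, which lacks both regions through which Pita binds CP190. Both transgenes were driven by the ubiquitous Ubi-p63E promoter and inserted at the same place, 86Fb on the third chromosome, and the labels name Oregon-R as the strain. The study also crossed the transgenes into a pita02132/pitak05606 background, a combination of strong hypomorphic alleles without detectable endogenous pita mRNA, but the sources used here do not state outright that the embryos used for ChIP had this genotype. Embryos were collected for 12 h according to the labels, while the methods of the study describe a later and narrower window. A single preimmune sample of the Pita wt line served as the background for all 4 lists. The peak lists analysed here combine the replicates, so each antibody and line is 1 list, no value below carries a replicate error, the sequencing depth behind a peak is unknown, and no comparison was tested.

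Homeotic genes encode transcription factors that give body segments their identity. Ubx acts in the posterior thorax and the anterior abdomen, abd-A in the middle of the abdomen, and Abd-B in the posterior abdomen and the genital segments. Their regulatory DNA is split into domains, each active from a given segment onwards, and boundary elements keep neighbouring domains apart: Fub lies on the Ubx side of the domains that drive abd-A, and between abd-A and Abd-B come Mcp, then Fab-6, then Fab-7, then Fab-8. Pita is a zinc-finger protein that binds DNA through a long recognition motif and is known to act at Fab-7 and Mcp. CP190 does not recognise a DNA sequence of its own at most of its sites and is brought to insulators and promoters by proteins such as Pita, dCTCF and Su(Hw). The sources used here give no coordinates for the boundaries, so peaks were placed only relative to annotated genes and transcription starts, and no peak was assigned to a named boundary.

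The DNA most relevant to Pita in this interval is the set of 8 matches to the Pita position weight matrix used in the study at p of at most 1e-05, where p is the share of random words with equal base frequencies that score as high. The interval offers 631188 words on both strands, of which 6.31 would pass this threshold by its definition, so a match alone is a description and not a binding site. All are given because the results turn on which of them carried a peak. The sequences were read from the RefSeq dm6 genome on the strand of the match, 5′ to 3′, with the 21 matched bases in capitals and 4 flanking bases on each side in lower case. Peak sites are numbered from 1 at the 3′ end of Ubx to 18 at the 5′ end of Abd-B.
At site 5, chr3R:16798651-16798671, plus strand, between lncRNA:bxd and abd-A: caaaGTCGAGCAGGTACCCGAACCAtgtc
In an abd-A intron without a peak, chr3R:16815733-16815753, plus strand: cagcCCTCAGCTCTGACTCAAACCAgaag
At site 9, chr3R:16869317-16869337, plus strand, in an intron of lncRNA:iab8 and MSAmiP: ataaATTTAGCCAATATCCAAACCTtttg
In a lncRNA:iab8 intron without a peak, chr3R:16898544-16898564, plus strand: ccaaCTGCAGTGAAGACACGAACCCcaag
Beside site 10, chr3R:16899501-16899521, plus strand, in a lncRNA:iab8 intron: ccaaCTCTAGCGGTGACCCTCACCTtttg
Beside site 10, chr3R:16899524-16899544, minus strand, in a lncRNA:iab8 intron: tcggACTTAGTCGGTACGCAAACCAaaag
At site 17, chr3R:16963704-16963724, minus strand, in the Abd-B 5′ UTR: acacAGCCAGCCAGCACACACACCAgcag
At site 18, chr3R:16969771-16969791, minus strand, in an Abd-B intron: cctaTTTTAGCGAGTGCACCCTCCTagtc

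The complex held 13 FLAG peaks of Pita wt, 10 FLAG peaks of Pita ΔCP1+2, 13 CP190 peaks of Pita wt and 12 CP190 peaks of Pita ΔCP1+2. Each summit was extended by 250 bp both ways, and windows that overlapped were chained, which gave 18 sites. Of these, 6 carried a peak in all 4 lists, 4 in 3 lists, 2 in 2 lists and 6 in 1 list. A peak in all 4 lists was found at 28.5% of the 12135 sites of the whole genome. The peaks were spread unevenly over the genes. Abd-B held 19 peaks at 7 sites within 45.0 kb, abd-A held 10 peaks at 2 sites within 22.8 kb, and Ubx, although 77.8 kb long, held 4 peaks at 2 sites. The stretch between Ubx and abd-A held 9 peaks at 3 sites, and the 97.2 kb between abd-A and Abd-B held 6 peaks at 4 sites. No summit fell in lncRNA:iab4, in the microRNA genes mir-iab-4 and mir-iab-8, or in Glut3, a predicted sugar transporter gene between Ubx and abd-A.

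**Figure D1:**
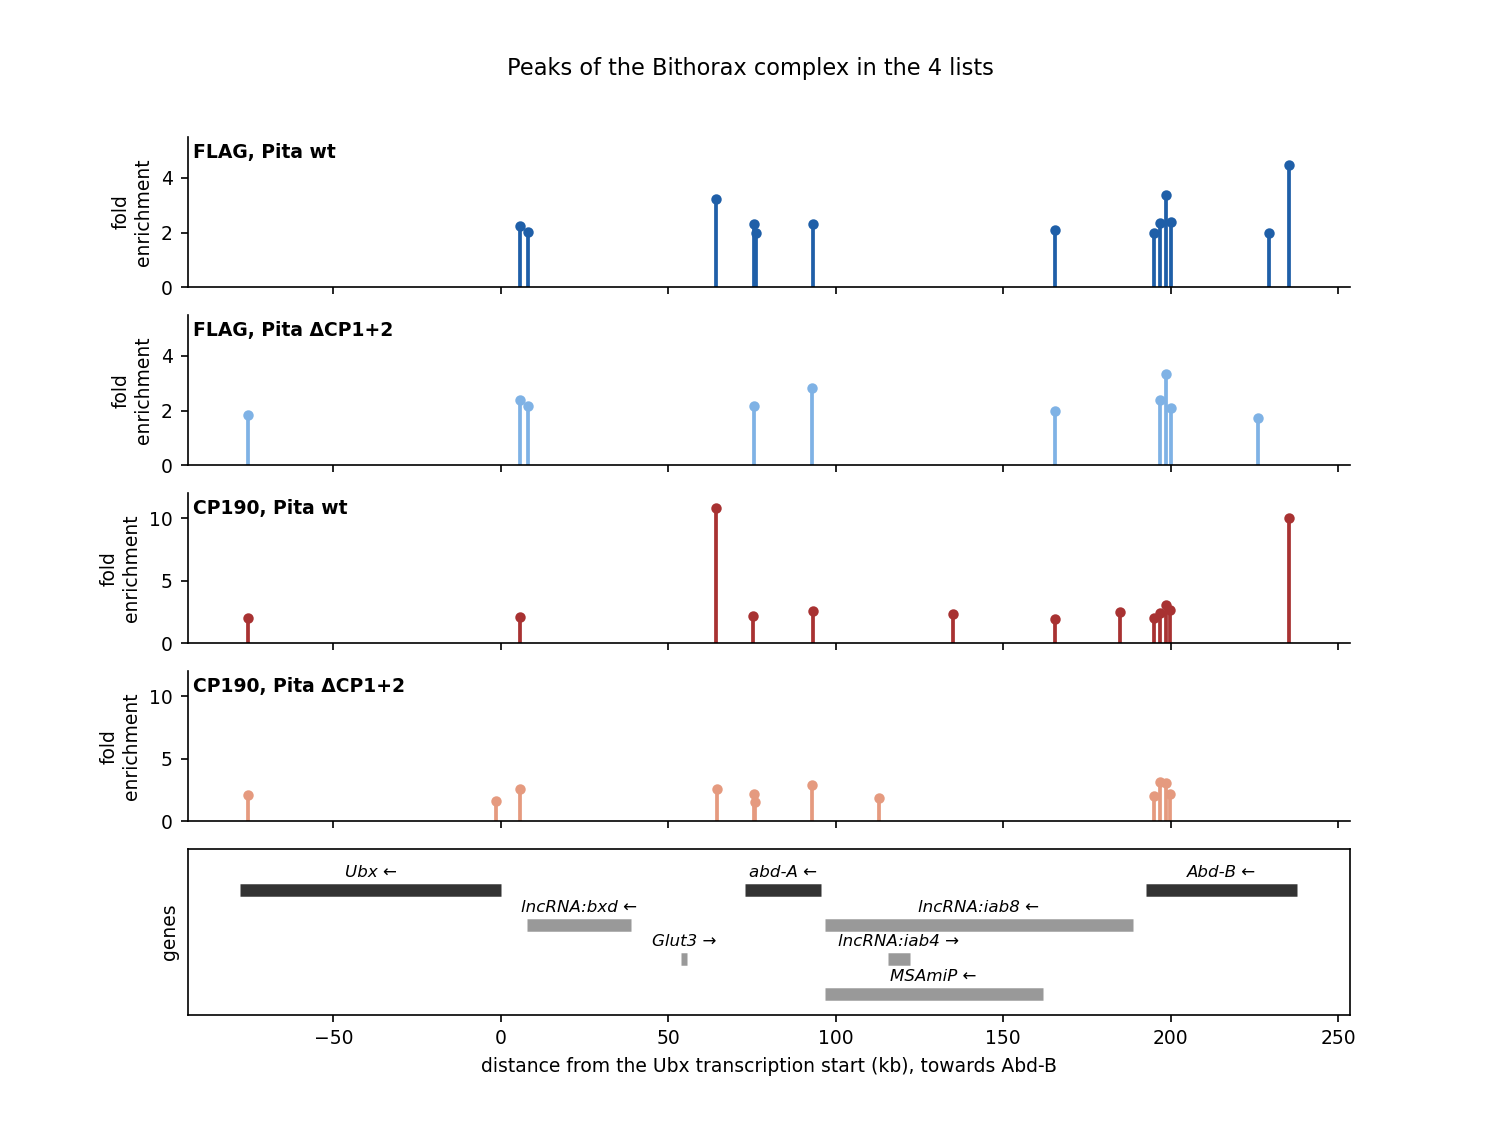
Fold enrichment over the preimmune sample (vertical axes, as deposited, with different ranges for FLAG and CP190) of each peak against its distance in kb from the Ubx transcription start, for the 4 lists, with gene bodies and their direction in the lowest panel. In Pita wt the CP190 peaks of site 5 (site midpoint at 64.3 kb) and site 18 (235 kb) and the FLAG peak of site 18 stand highest. At 235 kb neither list of Pita ΔCP1+2 holds a peak.

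The body of Ubx was nearly free of peaks. Site 1, in the coding exon near the 3′ end of the gene and 75.5 kb from its start, had a CP190 peak in Pita wt with a 2.00-fold enrichment (rank 3940 of 6586) and in Pita ΔCP1+2 with 2.13-fold (rank 3529 of 8429). A FLAG peak at site 1 was listed only for Pita ΔCP1+2, with 1.86-fold (rank 5423 of 7365). Here and below, fold enrichments are the authors' values over preimmune, and a rank counts from 1 at the highest fold enrichment of the same list, because folds of lists called separately do not share a scale. Site 2, in the coding exon 1.55 kb downstream of the Ubx start, was listed only for CP190 in Pita ΔCP1+2, with 1.66-fold (rank 8109), close to the end of that list. It was the site nearest to the single annotated start of Ubx, and no list had a summit at the start itself.

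Upstream of Ubx, in the direction of the bxd regulatory region, both antibodies found a site that was kept in the mutant line. Site 3, 5.81 kb upstream of the Ubx start with summits from 16740222 to 16740257, carried a peak in all 4 lists. FLAG enrichment there was 2.26-fold in Pita wt (rank 2527) and 2.37-fold in Pita ΔCP1+2 (rank 1309). CP190 enrichment was 2.09-fold in Pita wt (rank 3162) and 2.60-fold in Pita ΔCP1+2 (rank 920), so that both antibodies placed the site higher in the mutant lists. Site 4, in an exon of lncRNA:bxd, a non-coding RNA gene of the Ubx control region, carried FLAG without CP190 in both lines, with 2.02-fold in Pita wt (rank 4497) and 2.19-fold in Pita ΔCP1+2 (rank 2281).

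Site 5, in the intergenic DNA between lncRNA:bxd and abd-A and 31.3 kb from the abd-A start, was among the strongest CP190 peaks of the whole Pita wt list. CP190 enrichment was 10.8-fold in Pita wt (rank 29 of 6586), over a deposited peak of 1277 bp with the summit at 16798636. In Pita ΔCP1+2 it was 2.56-fold (rank 1025 of 8429), over 462 bp with the summit at 16798900. The CP190 peak of the mutant line was thus lower in its list, narrower and 264 bp away from that of Pita wt. The FLAG peak of Pita wt was 3.24-fold enriched (rank 207 of 6901) with its summit at 16798641, and the FLAG list of Pita ΔCP1+2 had no peak there. The FLAG and CP190 summits of Pita wt lay 20 and 25 bp from the centre of the Pita matrix match (exact score p = 2.59e-06), and the CP190 summit of Pita ΔCP1+2 lay 239 bp from it. The −log10 p of the CP190 peak was 125 in Pita wt and 7.98 in Pita ΔCP1+2.

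In the gene body of abd-A, both sites carried a peak in all 4 lists, and 1 of the 3 FLAG peaks of Pita wt had no counterpart in the mutant line. Site 7, in exonic sequence 591 bp downstream of the start of transcript abd-A-RB, was the nearest to all annotated abd-A starts. Its FLAG enrichment was 2.32-fold in Pita wt (rank 2111) and 2.81-fold in Pita ΔCP1+2 (rank 348), and its CP190 enrichment was 2.57-fold (rank 808) and 2.91-fold (rank 359). The FLAG peak of the mutant line at the abd-A 5′ end was therefore the second strongest of the complex in its list. Site 6, in the 3′ part of abd-A, had 2.31-fold (rank 2171) and 2.15-fold (rank 2506) for FLAG and 2.21-fold (rank 2233) and 2.15-fold (rank 3333) for CP190, with the Pita wt value first. Further peaks chained to site 6 were a FLAG peak of Pita wt at 16810766 (1.98-fold, rank 4920) with no counterpart in the FLAG list of Pita ΔCP1+2, and a weak CP190 peak of Pita ΔCP1+2 at 16810296 (1.59-fold, rank 8271), whose window overlapped the Pita wt CP190 window around 16809861. The abd-A intron match at 16815733 (exact score p = 6.36e-07) lay 4977 bp from the nearest summit and carried no peak in any list.

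Between abd-A and Abd-B, in the region that controls both genes from the iab domains, CP190 was listed for 1 line only at all 4 sites. Over the whole complex this was so at 6 of the 15 sites with CP190, beside 50.6% of such sites in the genome, so a site with CP190 in a single line is common. This stretch is transcribed into lncRNA:iab8, a long non-coding RNA that runs towards abd-A and also contains the MSAmiP gene. Site 8, in introns of lncRNA:iab8 and MSAmiP, was listed only for CP190 in Pita ΔCP1+2, with 1.85-fold (rank 6778). Site 9, in introns of the same genes at 16869454, was listed only for CP190 in Pita wt, with 2.31-fold (rank 1620). The matrix match at site 9 (exact score p = 6.77e-07) lay 127 bp from the summit, and no FLAG list had a peak there. It was the only peak window of the complex with a match at p of at most 1e-06, of 4 such matches in the interval. Site 11, in a lncRNA:iab8 intron at 16919231, was likewise listed only for CP190 in Pita wt, with 2.52-fold (rank 903).

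Site 10 carried FLAG in both lines and CP190 in Pita wt only. Its summits lay between 16899804 and 16899851, with the midpoint 4 bp from the annotated start of transcript lncRNA:iab8-RE. FLAG enrichment was 2.10-fold in Pita wt (rank 3755) and 1.98-fold in Pita ΔCP1+2 (rank 4089), and CP190 enrichment in Pita wt was 1.97-fold (rank 4219). A pair of the matrix matches given above is found here in opposite orientation, with starts 23 bp apart (exact score p = 4.81e-06 and 4.06e-07). They lay 293 and 270 bp from the nearest summit, just outside the windows of 250 bp, and were therefore not counted as matches of site 10. Both were inside the deposited boundaries of the FLAG and CP190 peaks of Pita wt, while the FLAG peak of Pita ΔCP1+2 held only the second. The match at 16898544 (exact score p = 6.49e-07), 957 bp before the start of the first of the pair, was inside no peak.

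The 3′ part of Abd-B carried a cluster of 4 sites spaced by 1.75, 1.71 and 1.36 kb, 3 of which had a peak in all 4 lists. Site 14, in a coding exon with summits from 16932971 to 16933001, was high in every list. Its FLAG enrichment was 3.36-fold in Pita wt (rank 157) and 3.33-fold in Pita ΔCP1+2 (rank 68), and its CP190 enrichment was 3.08-fold (rank 277) and 3.04-fold (rank 245). The summits of the 4 lists at site 14 fell within 30 bp of each other, and the best matrix match there was weak (exact score p = 9.02e-05). Site 13, in another coding exon, had FLAG enrichments of 2.34-fold (rank 1983) and 2.38-fold (rank 1282). CP190 at site 13 was 2.44-fold in Pita wt (rank 1137) and 3.11-fold in Pita ΔCP1+2 (rank 213), the highest CP190 rank of the complex in the mutant list. Site 15, 157 bp upstream of the shared start of Abd-B-RB and Abd-B-RH, went the other way. Its FLAG enrichment was 2.38-fold in Pita wt (rank 1806) and 2.11-fold in Pita ΔCP1+2 (rank 2906), and its CP190 enrichment was 2.68-fold (rank 605) and 2.17-fold (rank 3164). Site 12, in a coding exon at the 3′ end of the cluster, kept CP190 in both lines at 2.05-fold (rank 3455) and 2.04-fold (rank 4501), with a FLAG peak in Pita wt only (1.98-fold, rank 4929).

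The 5′ part of Abd-B, which holds the starts of the longer transcripts, had no site in all 4 lists. Site 18, in an intron 2.54 kb from the 5′ end of the gene and 1.12 kb upstream of the start of Abd-B-RJ, held the strongest FLAG peak of the complex in Pita wt, with 4.48-fold (rank 39 of 6901), and a CP190 peak of 10.0-fold (rank 33 of 6586) and 925 bp. The summits at 16969696 and 16969701 lay 85 and 80 bp from the centre of the matrix match (exact score p = 4.62e-06). Neither list of Pita ΔCP1+2 held a peak at site 18. The −log10 p in Pita wt was 127 for CP190 and 30.6 for FLAG. Site 17, in the 5′ UTR 157 bp upstream of the Abd-B-RC start, was listed only for FLAG in Pita wt (1.97-fold, rank 5038), with the matrix match (exact score p = 3.16e-06) 84 bp from the summit. Site 16, 130 bp upstream of the Abd-B-RA start, was listed only for FLAG in Pita ΔCP1+2 (1.72-fold, rank 6620). The start shared by Abd-B-RD, RF, RG and RI lay 9.84 kb from the nearest site, and the start of Abd-B-RE at the 5′ end of the gene had site 18 as its nearest.

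**Figure D2:**
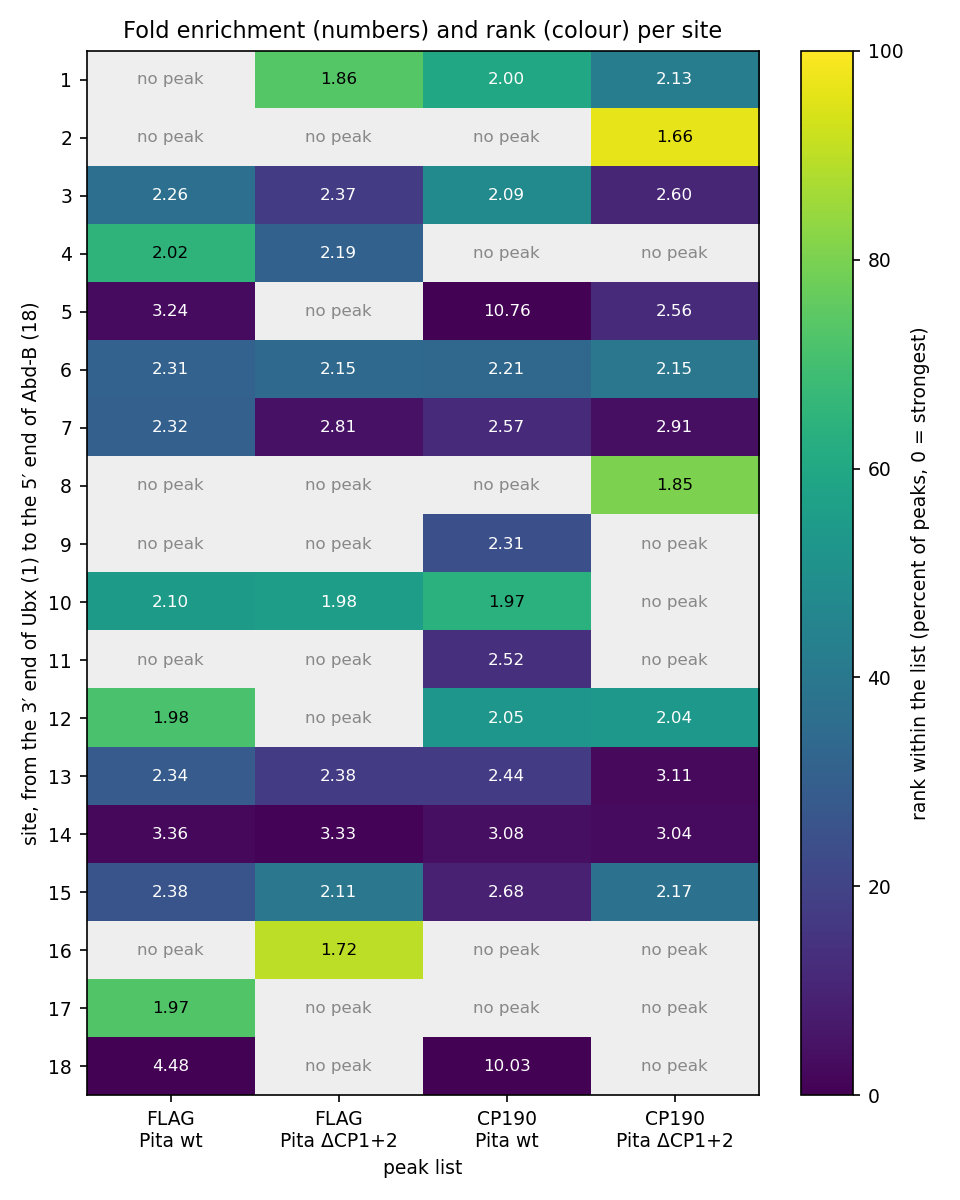
Sites 1 to 18 (rows) in the 4 peak lists (columns), with the deposited fold enrichment written in each cell and the rank within the list as colour, from 0% (strongest) to 100%; grey cells have no peak. Site 14 is dark in all 4 columns, while sites 5 and 18 are dark in both Pita wt lists and have at most 1 peak in the Pita ΔCP1+2 lists.

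FLAG peaks were compared between the lines to ask whether FLAG was listed at the same places when Pita lacked its CP190-interacting regions. The study divided its FLAG peaks by the presence of the Pita motif to deal with non-specific FLAG binding. A FLAG peak without a motif match, shared or not, is therefore not by itself evidence of bound Pita. Of the 13 FLAG peaks of Pita wt in the complex, 8 had an overlapping FLAG peak in Pita ΔCP1+2, which is 61.5% (95% Wilson interval 35.5 to 82.3), beside 71.6% of all 6901 FLAG peaks of Pita wt. In the other direction it was 8 of 10 peaks (80.0%, interval 49.0 to 94.3), beside 66.8% of the whole list. The intervals cover counting error over peaks only, which are not replicates of a line. Both shares in the complex were within counting error of the background. The Pita wt peaks without a counterpart were those of sites 5, 12, 17 and 18 and the second peak of site 6, and the Pita ΔCP1+2 peaks without one were those of sites 1 and 16. Among the 300 highest FLAG peaks of Pita wt, 90.7% had a counterpart in the mutant line. Of the 3 that lie in the complex, at sites 5, 14 and 18 (ranks 207, 157 and 39), only that of site 14 had one. These 3 peaks were picked by their own fold, and which of them enter depends on the cut. The cut of 300 was not among the planned settings and differs from that used below for CP190. The 3 peaks therefore cannot show whether the complex differs from the whole list, and this comparison is description only.

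CP190 peaks of Pita wt had a counterpart in Pita ΔCP1+2 in 9 of 13 cases (69.2%, interval 42.4 to 87.3), beside 75.1% of the whole list. In the other direction it was 10 of 12 (83.3%, interval 55.2 to 95.3), beside 58.7%. The peaks found only in Pita wt were at sites 9, 10, 11 and 18, and those found only in Pita ΔCP1+2 were at sites 2 and 8. Of the 100 highest CP190 peaks of Pita wt in the genome, 39.0% had a counterpart in the mutant line. The cut of 100 was also not among the planned settings, so this comparison too is description only. The complex holds 2 of these 100, at sites 5 and 18, and only site 5 had a counterpart. The summit of that counterpart lay 264 bp away, so it counts at the overlap of 1 bp used here but not at 250 bp.

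**Figure D3:**
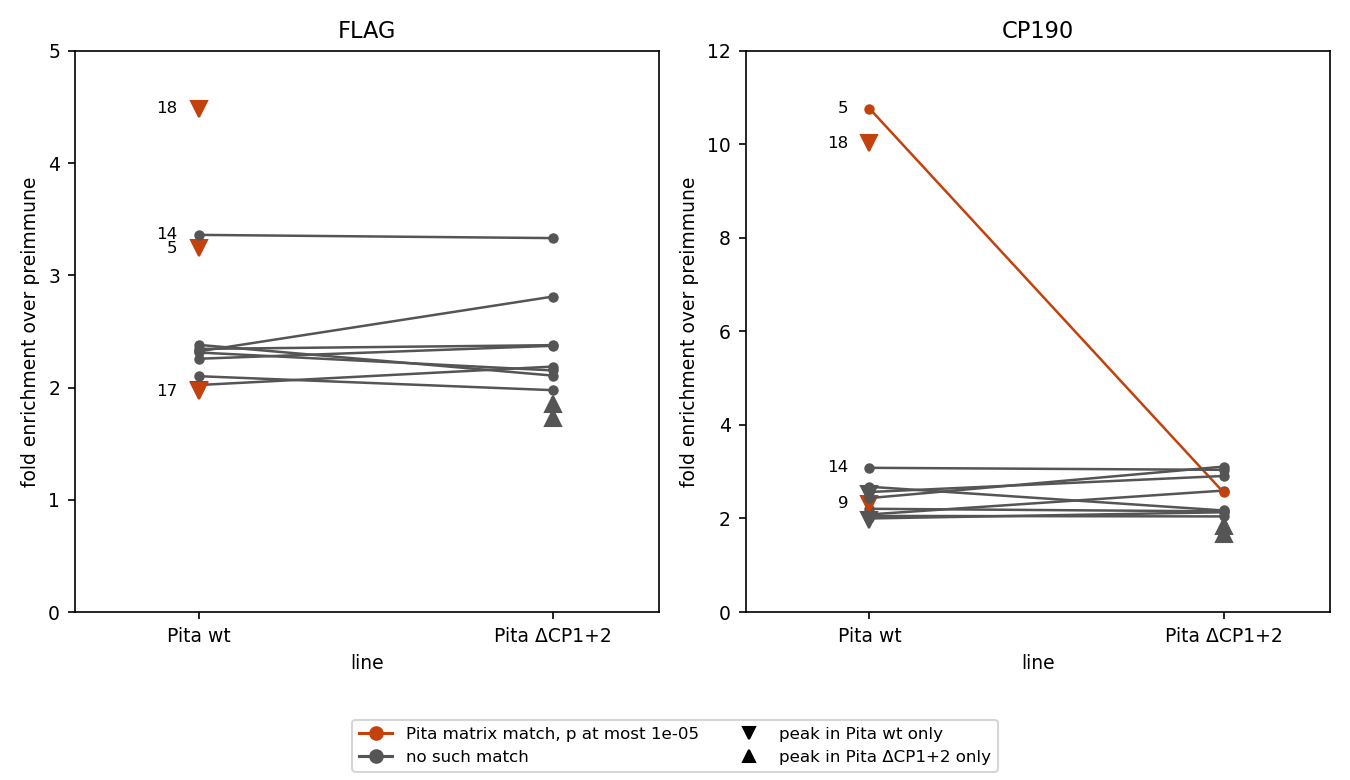
Deposited fold enrichment (vertical axes from 0) of each site in Pita wt and Pita ΔCP1+2 for FLAG (left) and CP190 (right); lines join sites with a peak in both lines and triangles mark sites with a peak in 1 line only. Orange sites have a Pita matrix match at p of at most 1e-05, and the CP190 line of site 5 runs from 10.8 to 2.56 while most other lines stay between 2 and 3.4. The lists were called separately and their folds do not share a scale, so a slope does not measure a change in binding.

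FLAG and CP190 were then compared within each line. In Pita wt, 10 of the 13 FLAG peaks had an overlapping CP190 peak (76.9%, interval 49.7 to 91.8), beside 65.2% of the whole FLAG list, and 10 of the 13 CP190 peaks had a FLAG peak, beside 68.2%. In Pita ΔCP1+2 it was 7 of 10 FLAG peaks (70.0%, interval 39.7 to 89.2), beside 73.5%, and 8 of 12 CP190 peaks (66.7%, interval 39.1 to 86.2), beside 64.2%. All 4 shares were near those of the whole lists at this number of peaks.

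The Pita matrix matches were compared with the presence of peaks in each line. At p of at most 0.0001, 4 of 13 FLAG peak windows of Pita wt held a match, beside 11.8% of the whole list, and 1 of 10 of Pita ΔCP1+2, beside 10.9%. For CP190 it was 4 of 13 in Pita wt, beside 13.7%, and 2 of 12 in Pita ΔCP1+2, beside 9.56%. At p of at most 1e-05, matches were present at 4 of the 18 sites, 5, 9, 17 and 18, none of which had a peak in all 4 lists. In single lists this was 3 of 13 FLAG windows of Pita wt, beside 3.16% of the whole list, and 0 of 10 of Pita ΔCP1+2, beside 1.71%, and 3 of 13 CP190 windows of Pita wt, beside 3.99%, and 1 of 12 of Pita ΔCP1+2, beside 1.1%. At p of at most 1e-06 it was 0 of 13 FLAG windows of Pita wt (background 1.54%), 0 of 10 of Pita ΔCP1+2 (0.625%), 1 of 13 CP190 windows of Pita wt (2.03%) and 0 of 12 of Pita ΔCP1+2 (0.273%). Among these 4 sites, none of the 3 FLAG peaks of Pita wt and 1 of the 3 CP190 peaks had a counterpart in Pita ΔCP1+2. Of the peaks without such a match, 8 of 10 FLAG peaks and 8 of 10 CP190 peaks of Pita wt had a counterpart. These include the peaks of site 10, whose pair of matches lies just outside the windows but inside the deposited Pita wt peaks. At site 10 the FLAG peak had a counterpart and the CP190 peak had none. Over the whole lists, a mutant counterpart was found for 51.4% of the FLAG peaks and 30.0% of the CP190 peaks with a match of this strength, beside 72.2% and 77.0% of those without. With 3 peaks of each kind, the complex alone cannot separate its shares from these.

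**Figure D4:**
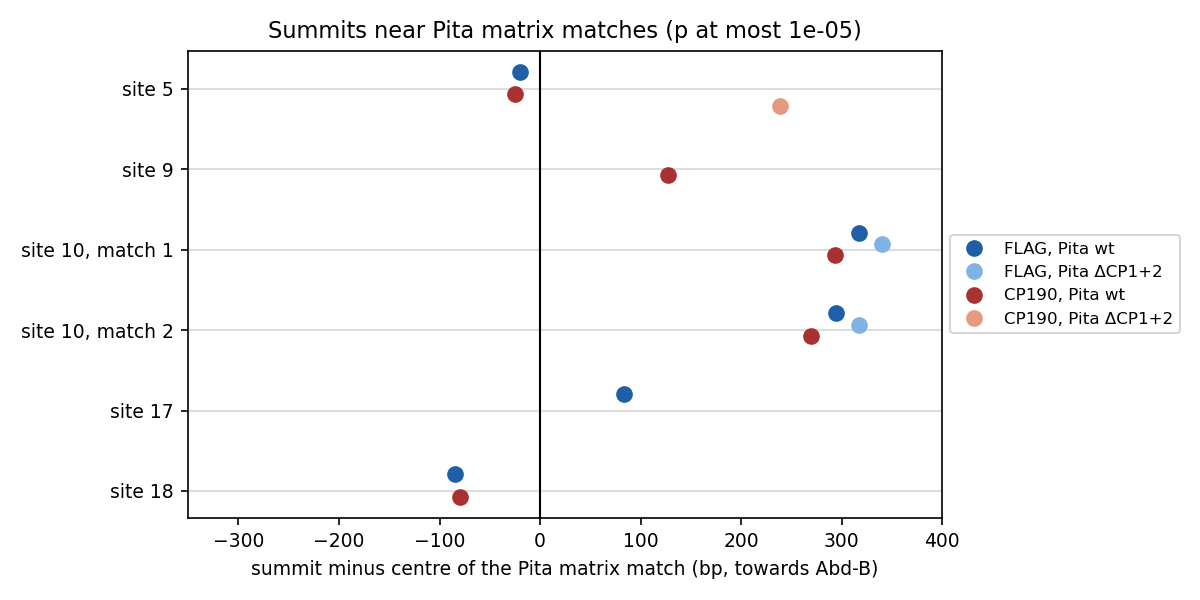
Position of peak summits in bp relative to the centre of the nearby Pita matrix match (0, vertical line), for matches at p of at most 1e-05 with a summit within 500 bp. The Pita wt summits of sites 5 and 18 lie 20 to 85 bp from the match, the CP190 summit of Pita ΔCP1+2 at site 5 lies 239 bp away, and all summits of site 10 lie 270 bp or more from its pair of matches.

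The order of the sites within a list moved between the lines in both directions. Of the 8 sites with FLAG in both lines, 5 had a higher relative rank in Pita ΔCP1+2 and 3 a lower one, and 56.1% of the 4925 sites shared by the FLAG lists over the genome had a higher one. For CP190 it was 5 higher and 4 lower of 9 sites, beside 68.0% higher among 4943. The CP190 peaks of Pita wt in the complex had a median rank at 17.3% of their list, against 38.5% for those of Pita ΔCP1+2, but these are not the same peaks, and the mutant list adds weak peaks at sites 2, 6 and 8. Over the 9 sites shared by the CP190 lists, the median difference in rank, Pita ΔCP1+2 minus Pita wt, was -1.30 percentage points of the list, a slightly higher place in the mutant list, beside -7.07 over the genome. The FLAG medians were 31.5% and 32.5%, and the median difference over the 8 shared sites was -6.34 points, beside -1.89. The mutant lists are longer, with 8429 against 6586 peaks for CP190 and 7365 against 6901 for FLAG. Weak peaks added to a list raise the relative rank of the others, and their share in these differences was not tested.

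**Figure D5:**
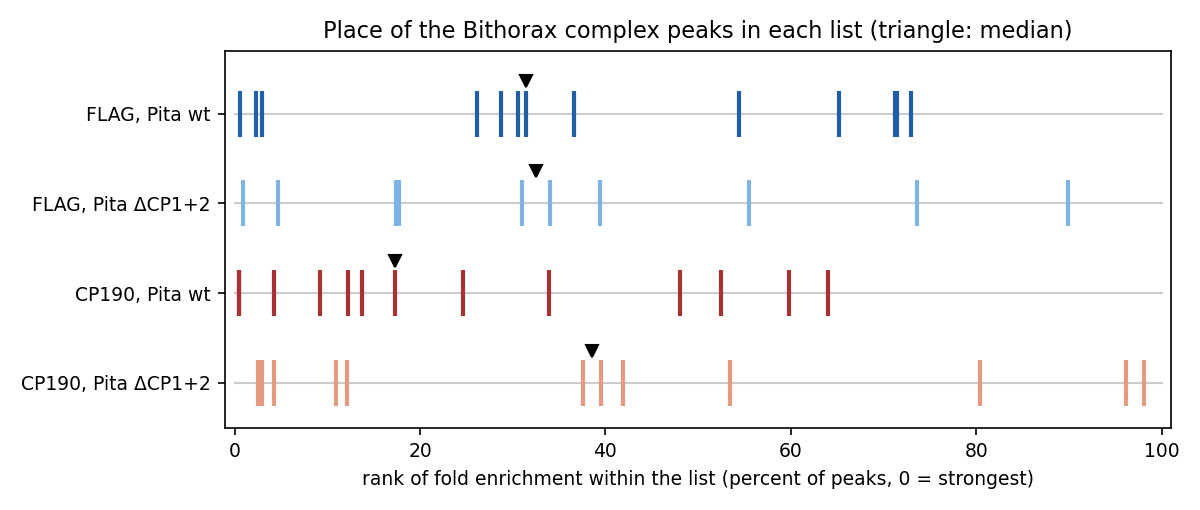
Rank of fold enrichment within the list, in percent of its peaks with 0 the strongest, for each peak of the complex in the 4 lists (vertical marks) and their medians (triangles). The CP190 peaks of Pita wt have their median at 17.3% and those of Pita ΔCP1+2 at 38.5%, where 2 marks lie beyond 95%.

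Short sequence words were counted in the same windows on both strands. GAGAG, a word bound by GAGA factor, which acts at several boundaries of the complex, was present in 10 of 13 FLAG windows of Pita wt, beside 48.8% of the whole list, in 7 of 10 of Pita ΔCP1+2, beside 49.5%, in 9 of 13 CP190 windows of Pita wt, beside 47.3%, and in 6 of 12 of Pita ΔCP1+2, beside 47.4%. AGNNGGCGC, a core of the motif of the insulator protein dCTCF, was present in 2 of 13 FLAG windows of Pita wt, beside 14.2% of the whole list, and in 1 of 10 of Pita ΔCP1+2, beside 14.5%. For CP190 it was present in 4 of 13 CP190 windows of Pita wt, at sites 1, 9, 11 and 18, beside 15.0% of the whole list. It was present in 1 of 12 CP190 windows of Pita ΔCP1+2, that of site 1, beside 14.6%. Of the 4 CP190 peaks found in Pita wt only, a subset looked at after the values were seen, 3 held this word, beside 11.6% of all such peaks. A match of this kind says nothing of whether dCTCF was bound.

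A transcription start lay within 500 bp of the summit for 4 of 13 FLAG peaks of Pita wt, beside 19.7% of the whole list, 3 of 10 of Pita ΔCP1+2, beside 18.4%, 2 of 13 CP190 peaks of Pita wt, beside 20.9%, and 1 of 12 of Pita ΔCP1+2, beside 17.4%. Per 100 kb, the complex held 4.12 FLAG peaks and 4.12 CP190 peaks of Pita wt, beside 5.25 and 5.28 on the rest of 3R. For Pita ΔCP1+2 it held 3.17 FLAG and 3.80 CP190 peaks, beside 5.71 and 6.52. The gene bodies of lab, pb, Dfd, Scr and Antp, the homeotic genes of the Antennapedia complex, held 7.82 and 8.86 peaks per 100 kb for FLAG and CP190 in Pita wt. For the mutant line these densities were 6.78 and 5.73. They cover gene bodies only, while the interval of the Bithorax complex also holds the DNA between its genes, so these densities are not on like terms. The peaks nearest to the interval on the Ubx side lay between 0.305 kb (CP190 of Pita wt, 3.05-fold, rank 286, nearest to the gene modSP) and 7.30 kb (FLAG of Pita wt) outside it. On the Abd-B side they lay between 7.03 and 7.54 kb outside.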

How the data were processed

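ChIP-seq used whole embryos of both transgenic lines, with 2 replicates for each antibody and line and 1 preimmune sample. Per the study's methods and the submitters' processing notes, the authors trimmed reads with cutadapt, aligned them to dm6 with Bowtie 2, removed duplicates with Picard, ran MACS2 with the preimmune sample as control and kept 1 reproducible list for each antibody and line by IDR. Labels and methods differ on collection window and read layout. The deposited peak columns hold the fold enrichment at the summit, a ratio over preimmune, the −log10 p of the peak and IDR scores, the last not used here. The signal per replicate was not analysed here, so depth and precision per sample are unknown.

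Peaks with a summit in the interval were taken from each list. Windows spanning 250 bp either way of a summit (500 bp) were called shared at an overlap of 1 bp, and shares were set beside the same share over all peaks of the list, with 95% Wilson intervals. Genes came from Ensembl release 115, and all peaks lay within the dm6 arm lengths. The Pita matrix (21 positions, read from a supplementary document of the study through page images, so its values may hold reading errors) was scanned on both strands with exact score p at thresholds of 0.0001, 1e-05 and 1e-06. Scripts used Python 3.11.15, numpy 2.4.6, pandas 2.3.3, scipy 1.17.1 and matplotlib 3.10.9 and were tested on simulated data. All 18 sites entered the map. The rule for describing sites with values took those in all 4 lists, the 3 highest in each list, those with a match at p of at most 1e-05, those nearest each start of the 3 homeotic genes and the 3 highest with an antibody in 1 line only. Sites 4 and 10 and the 2 matches beside site 10 fall outside the rule and were described after their values were seen, so that the map is complete. The interval, lists and rules were chosen with earlier results of these data known. Alternatives were other windows, overlaps, list lengths, matrix thresholds and search widths.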

Additional observations from a re-analysis of the deposited data

How the results depend on the processing

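Of 48 alternative values, 39 stayed within 1.5 times of the value reported, and 9 did not. With only the 3000 highest peaks of each list, the FLAG peaks of Pita wt in the complex went from 13 to 8 and the CP190 peaks of Pita ΔCP1+2 from 12 to 5, since fewer peaks enter. In that setting the CP190 peaks of Pita wt with a mutant counterpart went from 9 of 13 to 4 of 9. The CP190 peaks of Pita ΔCP1+2 with a Pita wt counterpart went from 10 of 12 to 4 of 5. The FLAG peaks with CP190 in Pita ΔCP1+2 went from 7 of 10 to 4 of 7. No share over the whole lists is given for this setting. FLAG peaks of Pita wt with a matrix match went from 4 to 0 at p of at most 1e-06. FLAG peaks of Pita ΔCP1+2 with a match went from 1 to 0 at 1e-05 and to 0 at 1e-06, and to 3 when 250 bp beyond the deposited boundaries were searched. Deposited boundaries, windows of 500 bp on each side and an overlap of 250 bp left every overlap count within 1.5 times. At an overlap of 250 bp, however, the CP190 peaks of Pita wt with a mutant counterpart went from 9 to 8, and the peak without one was that of site 5. No paired analysis was possible because the peak lists used here combine both replicates; the replicate samples were not analysed here one by one, so none was left out. Per the study's reproducibility table, replicates differed more, by self-consistency ratio, for both Pita wt lists than for both Pita ΔCP1+2 lists. For both Pita wt lists this ratio was above the limit that the methods of the study name, and for both Pita ΔCP1+2 lists it was below. The part of this difference in the peaks listed for Pita wt only was not tested. A peak missing from a list may lie below its calling threshold, so absence is not evidence of no binding.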
